A study of Mus musculus with 6 samples.

Results

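Glutamate and GABA receptor genes were followed in bulk RNA-seq counts of mouse dorsal root ganglia, where the cell bodies of sensory neurons lie outside the spinal cord. The members were all protein-coding genes whose symbols begin Gria, Grik, Grin, Grid or Grm followed by a digit, all Gabr subunit genes, and Gabbr1 and Gabbr2, if at least 1 read was counted in any library. Of 48 matching symbols among 54532 genes, 47 qualified, 27 on the glutamate side and 20 on the GABA side, and Gabra6 had no read. The symbol rule also took in Grid2ip, which encodes a scaffold protein that binds a delta receptor and is not itself a receptor. Of the 6 libraries, 3 were labelled Ash1l+/- and 3 WT, the WT mice being littermates. Ash1l encodes a histone H3 lysine 36 methyltransferase. No label used here gives the structure of the Ash1l allele, the age or sex of the mice, or whether ganglia of several mice were pooled. The labels do not tie each library to a separate animal, so each p-value reflects only how these samples vary, and that variation may be technical.

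Glutamate opens AMPA, kainate and NMDA receptors, which are cation channels built from several subunits, and activates metabotropic receptors, which signal through G proteins. GABA opens GABA-A receptors, which are chloride channels, and activates the G protein-coupled GABA-B receptor. Sensory neurons release glutamate as their fast transmitter. They also keep a high internal chloride, so that GABA depolarises them, and receptors on their central terminals adjust how much transmitter is released.

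Total counts were 17209294 to 20545722 in the libraries labelled Ash1l+/- and 17648407 to 19033437 in the WT libraries. Ash1l itself was at 66.5, 66.5 and 68.9 CPM (the usual depth-scaled count, on library sizes adjusted by the trimmed mean of M-values, TMM) in Ash1l+/- replicates 1, 2 and 3, against 60.9, 30.9 and 54.4 CPM in WT replicates 1, 2 and 3. The log2 fold change was 0.46 with 6 libraries and 0.22 without WT replicate 2 (edgeR adjusted p = 0.396 and 0.0593). The transcript was thus not lower under the Ash1l+/- label, and the direction of every difference here rests on the labels alone. WT replicate 2 stood apart: across genes, which are not independent replicates, Pearson's r of its log2 CPM with any other library was 0.846 to 0.877, against 0.981 or more among the remaining 5. The counts of called members are therefore given with 6 libraries and without WT replicate 2. WT means printed with an SD include WT replicate 2. Most fold changes of genes outside the member list are given only without it. The summed level of 17 sensory neuron markers was 13303 to 13689 CPM under the Ash1l+/- label and 12991 to 17177 CPM in WT, so the ganglion label had its defining genes.

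Outside WT replicate 2, the receptor transcripts of these ganglia were dominated by GABA-B subunits and the kainate subunit Grik1. Levels between genes are given as FPKM, the usual count scaled by depth and gene length, on TMM library sizes. Averaged over all 6 libraries, 11 members had at least 10 FPKM, 13 lay between 1 and 10, and 23 were under 1. Gabbr1 averaged 56.3 FPKM and Grik1 48.1, with ranges that overlapped between these genes (52.9 to 61.7 and 43.1 to 53.8). Within every single library, Gabbr1 was above Grik1. Gabbr2 followed at 33.5 FPKM over 6 libraries and at 38.2 ± 1.89 (SD) over the 5 without WT replicate 2. In those 5 libraries its highest value, 40.5, was below the lowest of Grik1, 44.1. Further down in the 5 libraries came Gria4 at 11.8, Grm7 at 11.0, Grik4 at 10.1, Grik5 at 10.1 and Grin1 at 9.21 FPKM. Neighbours among these last 5 overlapped in range. Grik5 averaged 19.1 FPKM over all 6 libraries. In WT replicate 2 it led at 64.0 FPKM, above Gabbr1 at 54.8 and Grik1 at 43.1, and Gabbr2 was at 9.96.

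**Figure D1:**
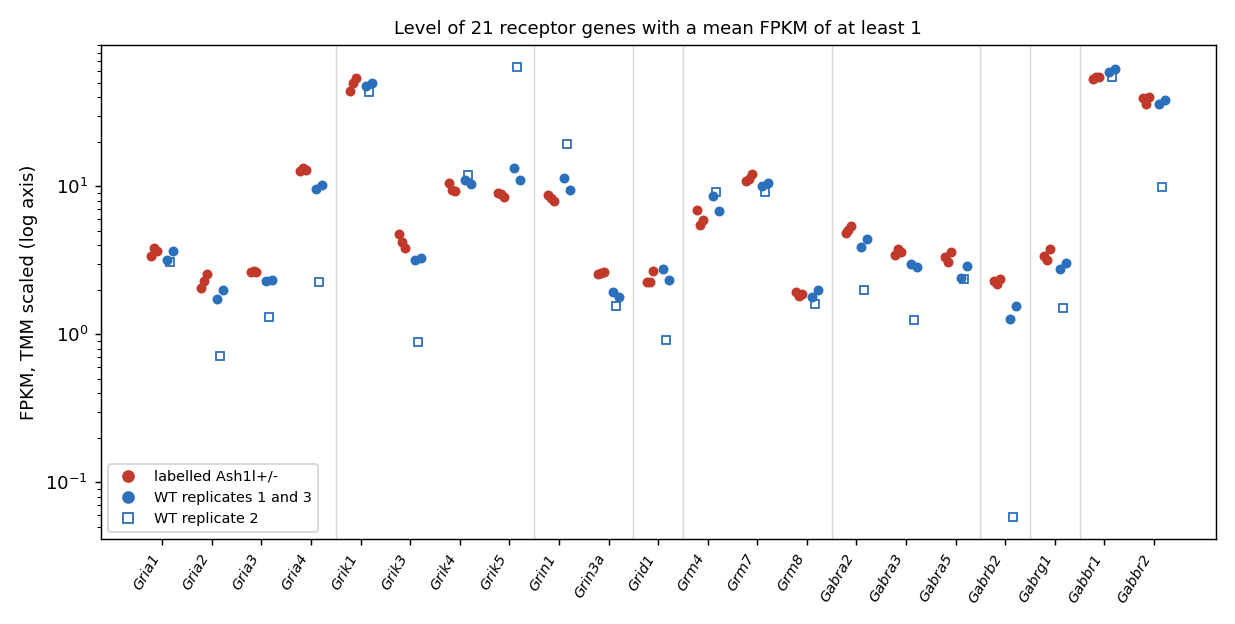
FPKM (log axis) of 21 members with a mean of at least 1 FPKM, 1 point per library, with receptor classes parted by grey lines. Ash1l+/- libraries (red) and WT replicates 1 and 3 (filled blue) lie close together in most genes, while WT replicate 2 (open square) departs from both, as in Grik5 at 64.0 and Gabrb2 at 0.0587 FPKM.

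At the other end, 9 members had too few reads to be tested in either comparison, among them Grm2, Grm6, Grin2a, Grin2b, Gabrp, Gabrq, Gabrr1 and Gabrr2. Their reads summed over all 6 libraries ranged from 1 for Grm6 to 35 for Gabrr2, with at most 11 in a single library. Grin2a and Grin2b encode the glutamate-binding subunits that predominate in forebrain NMDA receptors, and had 18 and 12 reads in all. Gabrr1 and Gabrr2 encode rho subunits, known best from the retina.

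With all 6 libraries no member differed between genotypes past the threshold. The quasi-likelihood test of edgeR, adjusted over all genes by Benjamini-Hochberg at 0.05, called 0 of 37 tested members and 0 of 16032 genes (0%). The smallest adjusted p of a member was 0.385. At an unadjusted p of 0.05, 2 members passed (Grin3a and Grik5), against 10.6% of all genes, and DESeq2 called 35 genes (0.218%; 0.0686% higher and 0.15% lower) with no member among them. The log2 fold changes of members ran from -1.75 for Grik5 to 1.23 for Gabrb2, with a median of 0.34, beside a median of 0.00 over all genes. Every library labelled Ash1l+/- lay above every WT library in 17 of 37 members, a layout found in 19.3% of all genes, and below every WT library in 4 (19.2% of all genes). For a single gene, a two-sided exact permutation test of 3 libraries against 3 cannot give less than 0.1.

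WT replicate 2 was the lowest of all 6 libraries in 27 of 37 tested members, against 44.5% of all genes, and the highest in 7, against 40.7%. Its median log2 CPM difference from WT replicates 1 and 3 was -0.35 over the members and -0.17 over all genes. By the same measure the members' medians were 0.17, 0.16 and 0.19 in Ash1l+/- replicates 1, 2 and 3, with medians over all genes within 0.01 of 0.

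Without WT replicate 2, 5 members rose under the Ash1l+/- label and 3 fell. They were Gria4, Grik3, Grin3a, Gabra2 and Gabrb2 among the rises, and Grik5, Grin1 and Grm4 among the falls. These 8 of 38 tested members, 21.1%, compare with 19.8% of all 16395 genes, so the share of members called was near that of any gene. By direction, 13.2% of members rose against 9.39% of all genes, and 7.89% fell against 10.4%. Among the 30 members that did not pass, log2 fold changes ran from -0.61 for Gabrd to 0.81 for Grm5, and 22 were positive. At an unadjusted p of 0.05, 15 members passed (39.5%), against 33.2% of all genes. In 17 members every library labelled Ash1l+/- lay above both remaining WT libraries (44.7%, against 23.9% of all genes), and in 5 below them (13.2%, against 25.3%). DESeq2 called the same members apart from Grm4 (adjusted p = 0.0570), with 8.73% of all genes higher and 9.16% lower. With the replicate number as a block, edgeR called 12 members (8 higher and 4 lower), against 24.3% of all genes (11.7% higher and 12.6% lower). With WT replicate 1 also left out, which leaves a single wild-type library assumed to vary like the other group, 1 of 40 members passed (2.5%, against 4.67% of all genes), namely Grin3a (edgeR adjusted p = 0.0265).

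**Figure D2:**
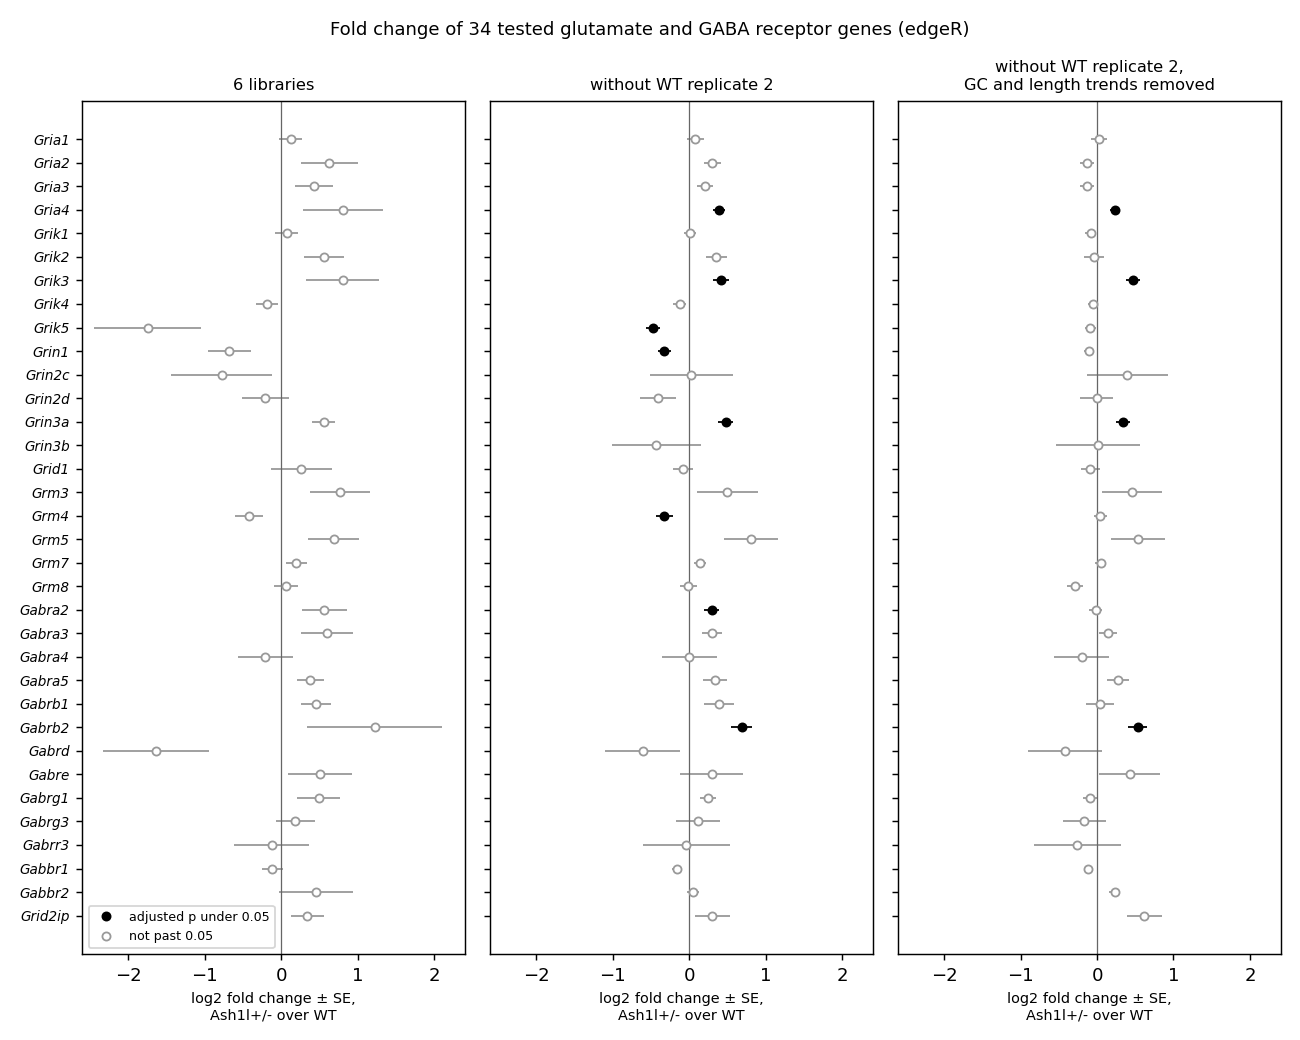
Log2 fold change of 34 tested members, Ash1l+/- over WT, with its SE from edgeR, for 6 libraries, for the 5 without WT replicate 2, and for those 5 with GC and length trends removed. Filled points passed an adjusted p of 0.05: none on the left, 8 in the middle and 4 on the right.

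The fold changes of the members followed the base composition of their transcripts. Over the 38 members tested without WT replicate 2, the log2 fold change fell with the GC share of the longest transcript at a Spearman rho of -0.44, beside -0.55 over all genes, described across genes of the same 5 libraries. Grik5, Grin1 and Grm4, which fell, had 61.7%, 59.4% and 61.7% GC. Gria4, Gabrb2, Grin3a and Gabra2, which rose, had 44.3%, 44.0%, 49.2% and 38.4%, and Grik3 had 54.2%. Of the 25 members under 50% GC, 22 had a positive log2 fold change (median 0.25), against 5 of the 13 at 50% or more (median -0.16). Members were also long, with a median of 6600 bases of gene length against 4100 over all tested genes. When a smooth trend on GC and on length was removed from each of the 5 libraries, 4 members passed (10.5%), namely Gria4, Grik3, Grin3a and Gabrb2, against 7.21% of all genes. All were higher under the Ash1l+/- label, with 2.76% of all genes called higher and 4.45% lower. Every library labelled Ash1l+/- lay above both remaining WT libraries in 9 members (23.7%, against 17.8% of all genes) and below them in 7 (18.4%, against 20.9%). The median member then stood at -0.01, beside 0.00 over all genes. After this step Spearman's rho with GC was 0.34 over the members and 0.04 over all genes, so the members leaned the other way. Whether GC content is the cause was not tested. Below, values of single genes with trends removed are from the 5 libraries without WT replicate 2, unless 6 libraries are named.

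**Figure D3:**
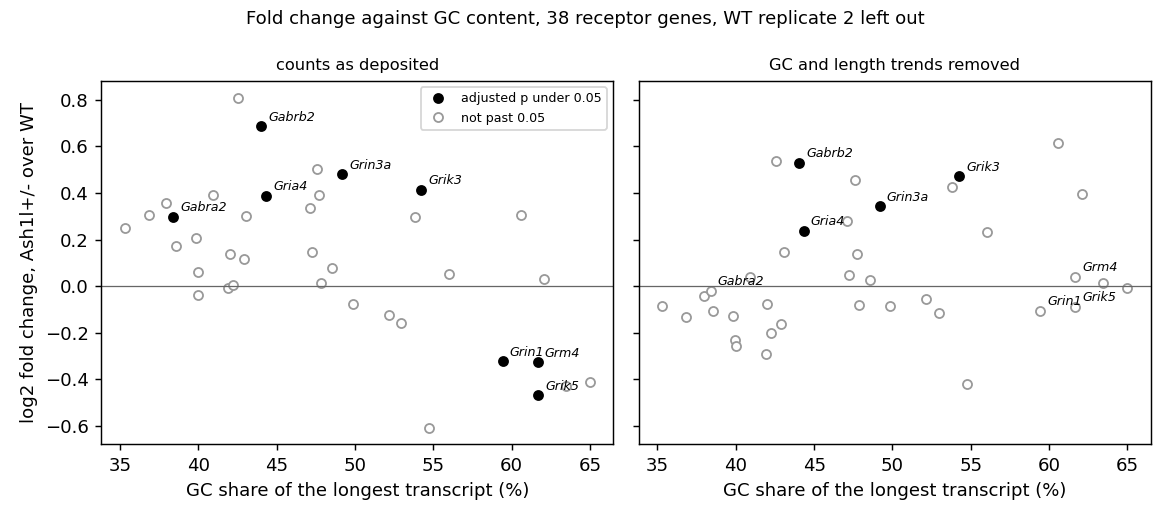
Log2 fold change (Ash1l+/- over WT) against the GC share of the longest transcript for 38 members, without WT replicate 2, from the counts as deposited (left) and with GC and length trends removed (right). On the left the 3 called falls lie near 60% GC, and on the right the 4 called genes are all rises.

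Upstream sequence is shown for a pair of members that fell (Grik5 and Grin1) and a pair that rose with and without the trend removal (Gria4 and Grik3), chosen after their values were seen. Each is the 150 bases before the annotated start, from RefSeq on GRCm38.p6, written 5′ to 3′ on the gene's strand, with GC boxes in capitals (GGGCGG, or CCGCCC on the other strand). They lie at chr7:25072370-25072519 (minus strand), chr2:25319188-25319337 (minus), chr9:4796235-4796384 (minus) and chr4:125490546-125490695 (plus).
Grik5: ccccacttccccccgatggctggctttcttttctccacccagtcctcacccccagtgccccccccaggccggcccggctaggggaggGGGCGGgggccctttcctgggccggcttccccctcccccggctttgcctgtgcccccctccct
Grin1: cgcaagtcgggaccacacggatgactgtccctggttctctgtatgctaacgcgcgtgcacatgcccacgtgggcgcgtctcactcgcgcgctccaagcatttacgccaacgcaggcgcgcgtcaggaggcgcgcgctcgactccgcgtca
Gria4: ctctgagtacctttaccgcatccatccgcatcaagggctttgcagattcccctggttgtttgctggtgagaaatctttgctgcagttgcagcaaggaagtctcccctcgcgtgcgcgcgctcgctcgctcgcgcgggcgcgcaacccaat
Grik3: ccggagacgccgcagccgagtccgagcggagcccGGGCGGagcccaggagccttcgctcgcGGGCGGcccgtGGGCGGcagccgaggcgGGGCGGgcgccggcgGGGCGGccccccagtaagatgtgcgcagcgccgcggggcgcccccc
GC made up 74.0%, 66.0%, 59.3% and 84.0% of these windows in the order shown. The GC box matched once in Grik5 and 5 times in Grik3, and did not match in Grin1 or Gria4. Such a match was present at 16 of 40 listed starts of 32 members (40.0%) and at 28.6% of 32851 starts of all genes. Of the 4 windows shown, the most GC-rich belonged to Grik3, which rose.

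AMPA receptor genes encode the channels of fast glutamate transmission. Gria4 was their leading transcript except in WT replicate 2, where Gria1 was higher. Gria4 (ENSMUSG00000025892, chromosome 9, 4417896 to 4796234, minus strand of GRCm38) was at 12.7, 13.3 and 13.0 FPKM in the libraries labelled Ash1l+/-, against 9.58, 2.28 and 10.3 FPKM in WT replicates 1, 2 and 3. All libraries of the first group lay above all of the second, and WT replicate 2 was far below the rest. The edgeR log2 fold change stood at 0.81 (SE 0.53, adjusted p = 0.418) with 6 libraries and 0.39 (SE 0.08, adjusted p = 0.00218) without WT replicate 2. With GC and length trends removed it was 0.24 (SE 0.06, adjusted p = 0.0304). Gria3 was at 2.65, 2.67 and 2.65 FPKM under the Ash1l+/- label, against 2.29, 1.30 and 2.32 FPKM in WT, without passing (log2 fold change 0.20, SE 0.10, adjusted p = 0.168 in edgeR without WT replicate 2). Gria2, whose subunit limits calcium entry through AMPA receptors, averaged 2.30 ± 0.264 FPKM under the Ash1l+/- label and 1.48 ± 0.674 FPKM in WT (SD, n = 3 each), with an edgeR adjusted p of 0.0553 without WT replicate 2. The Gria2 mean of WT replicates 1 and 3 was 1.86 FPKM. Gria1 averaged 3.61 ± 0.233 FPKM under the Ash1l+/- label and 3.31 ± 0.297 FPKM in WT. Gria4 made up 60.3 ± 0.896% of the summed AMPA FPKM under the Ash1l+/- label, against 57.0%, 30.8% and 56.4% in WT replicates 1, 2 and 3. Gria2 made up 10.7 ± 0.999% under the Ash1l+/- label and 10.3 ± 0.607% in WT, in ranges that overlapped.

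Kainate receptor genes were led by Grik1 outside WT replicate 2. Its product forms the kainate receptors known from small sensory neurons. Grik1 was at 44.1, 49.97 and 53.8 FPKM under the Ash1l+/- label, against 47.7, 43.1 and 49.9 FPKM in WT. The groups overlapped, and the log2 fold change was 0.02 (SE 0.08, edgeR adjusted p = 0.916) without WT replicate 2. Grik3 (ENSMUSG00000001985, chromosome 4, 125490700 to 125714173, plus strand), a further pore-forming subunit, was at 4.79, 4.22 and 3.83 FPKM under the Ash1l+/- label, against 3.19, 0.891 and 3.26 FPKM in WT. All 3 Ash1l+/- libraries lay above all WT libraries. Its log2 fold change was 0.80 (SE 0.47, edgeR adjusted p = 0.400) with 6 libraries, 0.41 (SE 0.11, adjusted p = 0.0100) without WT replicate 2, and 0.47 (SE 0.09, adjusted p = 0.00377) with trends removed.

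Grik5 (ENSMUSG00000003378, chromosome 7, 25009849 to 25072346, minus strand) encodes a high-affinity subunit that needs a pore-forming partner such as the product of Grik1. It was at 8.98, 8.87 and 8.47 FPKM under the Ash1l+/- label, against 13.2, 64.0 and 11.0 FPKM in WT. All Ash1l+/- libraries lay below the WT libraries, and WT replicate 2 had several times the level of any other library. The edgeR log2 fold change stood at -1.75 (SE 0.70, adjusted p = 0.385) with 6 libraries, -0.47 (SE 0.09, adjusted p = 0.00168) without WT replicate 2, and -0.09 (SE 0.08, adjusted p = 0.542) with trends removed. Grik4, the other high-affinity subunit, averaged 9.78 ± 0.721 FPKM under the Ash1l+/- label and 11.1 ± 0.854 FPKM in WT. Grik2 averaged 1.17 ± 0.143 FPKM under the Ash1l+/- label and 0.793 ± 0.218 FPKM in WT (0.919 FPKM without WT replicate 2). Neither passed in either comparison. The ratio of Grik5 to Grik1 FPKM was 0.204, 0.177 and 0.157 under the Ash1l+/- label, against 0.278, 1.48 and 0.221 in WT, without overlap (two-sided exact permutation p = 0.1, the smallest that 3 against 3 can give).

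NMDA receptor genes showed opposite changes in their most abundant pair without WT replicate 2. Grin1 (ENSMUSG00000026959, chromosome 2, 25291181 to 25319187, minus strand) encodes the subunit that every NMDA receptor contains. It was at 8.75, 8.37 and 7.95 FPKM under the Ash1l+/- label, against 11.4, 19.2 and 9.51 FPKM in WT, with no overlap. Its log2 fold change was -0.68 (SE 0.28, edgeR adjusted p = 0.385) with 6 libraries, -0.32 (SE 0.09, adjusted p = 0.0123) without WT replicate 2, and -0.11 (SE 0.06, adjusted p = 0.368) with trends removed. Grin1 shares 1307 exonic bases with its antisense gene Grin1os in GENCODE M21, which had 21 reads in all against 11275 for Grin1.

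Grin3a (ENSMUSG00000039579, chromosome 4, 49661611 to 49845744, minus strand) encodes a glycine-binding subunit that lowers the calcium permeability of NMDA receptors. It was at 2.57, 2.61 and 2.63 FPKM under the Ash1l+/- label, against 1.94, 1.56 and 1.80 FPKM in WT. The groups did not overlap, and WT replicate 2 was the lowest library. The edgeR log2 fold change stood at 0.56 (SE 0.15, adjusted p = 0.385) with 6 libraries and 0.48 (SE 0.10, adjusted p = 0.00300) without WT replicate 2. With trends removed, it was 0.34 (SE 0.09, edgeR adjusted p = 0.0250) without WT replicate 2. In all 6 libraries with trends removed, it was 0.18 (SE 0.17, edgeR adjusted p = 0.620). The ratio of Grin3a to Grin1 FPKM was 0.294, 0.312 and 0.330 under the Ash1l+/- label, against 0.169, 0.0811 and 0.189 in WT. Grin3a therefore made up 22.3 ± 1.28% of the summed NMDA subunit FPKM under the Ash1l+/- label and 11.8 ± 4.01% in WT (SD, n = 3 each). The mean share in WT replicates 1 and 3 was 14.1%. Among the remaining subunits, Grin2d averaged 0.437 ± 0.0777 FPKM under the Ash1l+/- label and 0.502 ± 0.144 FPKM in WT, and Grin2c had 77 reads in all. Grin3b had 59 reads, and 1059 of its exonic bases overlap Tmem259 on the other strand, which had 15848 reads, so its count is uncertain in an unstranded library.

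**Figure D4:**
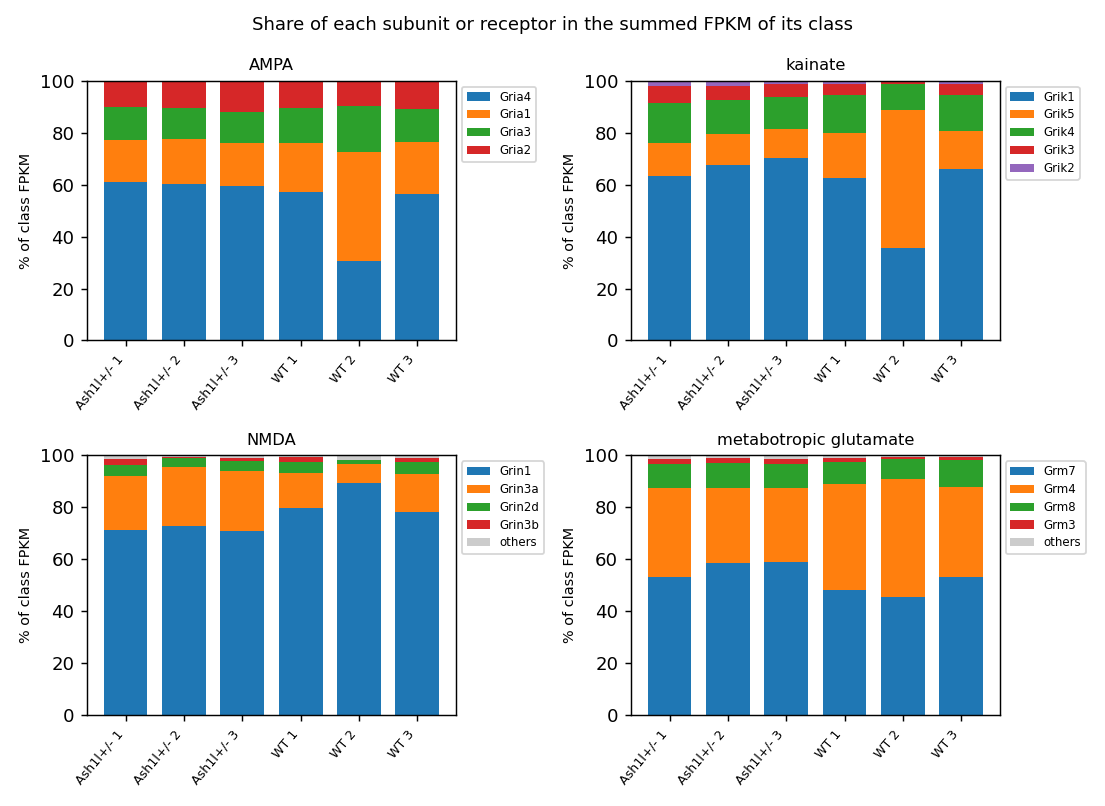
Share of each subunit or receptor in the summed FPKM of its class, in percent, with 1 bar per library and Ash1l+/- libraries left of WT libraries; members averaging under 1% are pooled as others. Grin3a takes 20.9% to 23.3% of the NMDA sum under the Ash1l+/- label and 7.26% to 14.8% in WT, and Grik5 takes 53.1% of the kainate sum in WT replicate 2.

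The delta receptor gene Grid1 encodes a synapse-organising relative of the glutamate channels and did not pass in either comparison. It was at 2.27, 2.28 and 2.69 FPKM under the Ash1l+/- label, against 2.78, 0.915 and 2.31 FPKM in WT. The groups overlapped, and the sign of its log2 fold change differed between 6 libraries (0.27, SE 0.40) and 5 (-0.08, SE 0.13), with edgeR adjusted p of 0.693 and 0.724. Grid2ip averaged 0.535 ± 0.0596 FPKM under the Ash1l+/- label and 0.421 ± 0.0338 FPKM in WT.

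Metabotropic glutamate receptor genes were almost entirely those of group III, the receptors best known for restraining transmitter release from nerve terminals. Grm7 was at 10.9, 11.2 and 12.2 FPKM under the Ash1l+/- label, against 10.1, 9.11 and 10.5 FPKM in WT. The groups did not overlap, and the log2 fold change without WT replicate 2 was 0.15 (SE 0.08, edgeR adjusted p = 0.221). Grm4 (ENSMUSG00000063239, chromosome 17, 27422387 to 27521403, minus strand) was at 6.96, 5.48 and 5.90 FPKM under the Ash1l+/- label, against 8.55, 9.13 and 6.82 FPKM in WT. These groups overlapped, since Ash1l+/- replicate 1 lay above WT replicate 3. The edgeR log2 fold change stood at -0.42 (SE 0.18, adjusted p = 0.385) with 6 libraries, -0.33 (SE 0.11, adjusted p = 0.0468) without WT replicate 2, and 0.04 (SE 0.08, adjusted p = 0.826) with trends removed, where its sign turned. Grm8 averaged 1.88 ± 0.0584 FPKM under the Ash1l+/- label and 1.80 ± 0.203 FPKM in WT. The group I receptor gene Grm5 averaged 0.190 ± 0.0341 FPKM under the Ash1l+/- label and 0.118 ± 0.0323 FPKM in WT (0.108 FPKM without WT replicate 2). The group II receptor gene Grm3 averaged 0.389 ± 0.0298 FPKM under the Ash1l+/- label and 0.223 ± 0.0873 FPKM in WT (0.274 FPKM without WT replicate 2). Neither passed.

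GABA-A alpha subunits set where a receptor sits and how it responds to benzodiazepines. Gabra2 (ENSMUSG00000000560, chromosome 5, 70957597 to 71095849, minus strand) was at 4.86, 5.05 and 5.38 FPKM under the Ash1l+/- label, against 3.91, 2.00 and 4.39 FPKM in WT, with no overlap. Its log2 fold change was 0.57 (SE 0.30, edgeR adjusted p = 0.388) with 6 libraries, 0.30 (SE 0.10, adjusted p = 0.0355) without WT replicate 2, and -0.02 (SE 0.08, adjusted p = 0.921) with trends removed. Gabra5, whose subunit is found mostly outside synapses, was at 3.31, 3.08 and 3.59 FPKM under the Ash1l+/- label, against 2.39, 2.36 and 2.89 FPKM in WT, without overlap and without passing (edgeR adjusted p = 0.138 without WT replicate 2). Gabra3 averaged 3.62 ± 0.166 FPKM under the Ash1l+/- label and 2.37 ± 0.969 FPKM in WT (2.93 FPKM without WT replicate 2). Gabra4 averaged 0.231 ± 0.0501 FPKM under the Ash1l+/- label and 0.269 ± 0.0835 FPKM in WT.

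GABA-A beta subunits form the GABA-binding site together with alpha subunits. Gabrb2 (ENSMUSG00000007653, chromosome 11, 42419757 to 42629028, plus strand) was at 2.29, 2.18 and 2.35 FPKM under the Ash1l+/- label, against 1.27, 0.0587 and 1.57 FPKM in WT. Every Ash1l+/- library lay above the WT libraries, and WT replicate 2 was far below every other library. Its log2 fold change was 1.23 (SE 0.88, edgeR adjusted p = 0.449) with 6 libraries, 0.69 (SE 0.14, adjusted p = 0.00258) without WT replicate 2, and 0.53 (SE 0.13, adjusted p = 0.0185) with trends removed. This was the largest fold change among the 8 called members in the 5 libraries. Gabrb1 was at 0.380, 0.376 and 0.418 FPKM under the Ash1l+/- label, against 0.286, 0.259 and 0.311 FPKM in WT, without overlap and without passing (edgeR adjusted p = 0.160 without WT replicate 2).

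Among the remaining GABA-A subunits, Gabrg1 averaged 3.45 ± 0.313 FPKM under the Ash1l+/- label and 2.44 ± 0.811 FPKM in WT. Its mean in WT replicates 1 and 3 was 2.91 FPKM. Gabrd, which encodes the delta subunit of tonically active receptors, was at 0.175, 0.149 and 0.174 FPKM under the Ash1l+/- label, against 0.241, 1.09 and 0.271 FPKM in WT. The groups did not overlap, but these levels rest on 99 reads in all, and the edgeR adjusted p was 0.385 with 6 libraries and 0.416 with 5. Gabrg3, Gabre and Gabrr3 had 237, 114 and 57 reads in all, and none passed.

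The GABA-B receptor needs both of its subunits, the GABA-binding product of Gabbr1 and the G protein-coupling product of Gabbr2. Gabbr1 was at 52.9, 54.6 and 54.7 FPKM under the Ash1l+/- label, against 59.2, 54.8 and 61.7 FPKM in WT. The groups did not overlap, by a narrow margin in WT replicate 2, and the log2 fold change without that library was -0.16 (SE 0.07, edgeR adjusted p = 0.114). Gabbr2 was at 39.5, 36.3 and 40.5 FPKM under the Ash1l+/- label, against 36.3, 9.96 and 38.5 FPKM in WT. WT replicate 2 was low, and the other libraries overlapped (log2 fold change 0.05, SE 0.08, edgeR adjusted p = 0.664 without it). The ratio of Gabbr2 to Gabbr1 was 0.746, 0.664 and 0.740 under the Ash1l+/- label, against 0.612, 0.182 and 0.624 in WT. It was higher in all 3 libraries of the first group (two-sided exact permutation p = 0.1, the smallest possible). This ratio and that of Grik5 to Grik1 were among 5 subunit ratios compared, each at the smallest p that the exact permutation test allows, also after Benjamini-Hochberg adjustment over the 5. Grik5, Grin3a, Gria4 and Grm4, all called without WT replicate 2, were numerators, so these ratios are not separate from those calls. Ratios with trends removed were not tested. In those 5 libraries the log2 fold changes with trends removed were -0.09 for Grik5 and -0.08 for Grik1. They were 0.23 for Gabbr2 and -0.11 for Gabbr1.

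Genes that work with these receptors were counted from 3 lists, none of which had a called gene with 6 libraries in edgeR. Without WT replicate 2, 1 of 23 tested auxiliary subunit genes rose and 5 fell, beside 9.39% and 10.4% of all genes. The rise was Kctd16, an auxiliary subunit of GABA-B receptors, at 14.3, 17.5 and 12.9 CPM under the Ash1l+/- label, against 9.04, 0.747 and 10.4 CPM in WT (edgeR log2 fold change 0.62, SE 0.15, adjusted p = 0.00720). The largest fall was Cnih2, which helps export AMPA receptors to the cell surface, at 16.1, 14.8 and 16.1 CPM under the Ash1l+/- label, against 27.7, 54.7 and 25.2 CPM in WT (edgeR log2 fold change -0.75, SE 0.11, adjusted p = 2.08e-04). The other falls were Nptx2 (-0.44) and Nptxr (-0.28), whose pentraxin products cluster AMPA receptors, Cpt1c (-0.34), which aids AMPA receptor trafficking, and Clptm1 (-0.26), which retains GABA-A receptors inside the cell, all as log2 fold changes. With trends removed, Kctd16 still passed in edgeR (adjusted p = 0.0166), Cacng4, an AMPA receptor partner, passed as a rise (adjusted p = 0.0383), and none of these 5 falls passed. In that fit 2.76% of all genes rose and 4.45% fell. Cacng4 was at 16.7 CPM in WT replicate 2, above every Ash1l+/- library (6.68 to 10.3 CPM). With 6 libraries its log2 fold change was -0.20. Nptx2, among the falls, was at 69.6 CPM in WT replicate 2, below every Ash1l+/- library (79.7 to 95.7 CPM).

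Of 30 scaffold and clustering genes without WT replicate 2, 4 rose, among them Dlg2, Trak2 and Gripap1, and Gabarapl2 fell. The log2 fold changes of these calls ran from -0.24 to 0.30. Of all genes, 9.39% rose and 10.4% fell. Homer1, Gphn and Dlg4, which anchor metabotropic, GABA-A and NMDA receptors, had log2 fold changes of 0.20, 0.13 and -0.11 and did not pass. With trends removed, Gripap1 passed as a rise, and Gabarapl2 and Dlg4 as falls (log2 fold changes 0.32, -0.32 and -0.34). In that fit 2.76% of all genes rose and 4.45% fell. With 6 libraries and no trend removal, Dlg4 stood at 0.14, the opposite sign. Of 30 tested genes for transmitter synthesis, transport and the chloride gradient, 2 rose and 2 fell without WT replicate 2, beside 9.39% and 10.4% of all genes. Slc12a2, which encodes the importer that loads sensory neurons with chloride, was at 193, 188 and 177 CPM under the Ash1l+/- label, against 152, 118 and 162 CPM in WT (log2 fold change 0.25, SE 0.08, edgeR adjusted p = 0.0265 without WT replicate 2). With trends removed its adjusted p was 0.456. Slc1a3, a glial glutamate transporter, also rose (log2 fold change 0.36, adjusted p = 0.0378). Slc17a7, a vesicular glutamate transporter, fell (-0.28, adjusted p = 0.0347), as did the amino acid transporter Slc1a5 (-0.69, adjusted p = 1.56e-04), which still passed with trends removed (adjusted p = 0.00942). In WT replicate 2 Slc17a7 was at 150 CPM, below every Ash1l+/- library (178 to 227 CPM). Slc17a6, the other vesicular glutamate transporter, and the glutamine synthetase gene Glul did not pass, with log2 fold changes of 0.17 and -0.14.

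Markers of other ganglion cells moved with these comparisons. In bulk tissue, fewer cells of a type and less RNA per cell cannot be told apart. Without WT replicate 2, 5 of 8 satellite glia markers were higher under the Ash1l+/- label and 1 lower (median log2 fold change 0.34), and 5 of 17 sensory neuron markers were higher and 2 lower (median 0.06). Of all genes, 9.39% were higher and 10.4% lower. The summed level of the satellite glia list was 3433 to 4190 CPM under the Ash1l+/- label and 3776 to 12010 CPM in WT, the highest value being WT replicate 2. Apoe gave most of this sum, with 2255 to 2954 CPM under the Ash1l+/- label. It did not rise without WT replicate 2 (log2 fold change -0.18, edgeR adjusted p = 0.176), so the sum and the marker counts measure different things. Summed skeletal muscle markers were 2.17 to 3.43 CPM under the Ash1l+/- label and 3.66 to 36.8 CPM in WT, again highest in WT replicate 2. Schwann cell markers were at 4072 to 4827 CPM under the Ash1l+/- label and 4863 to 5912 CPM in WT, with 0 of 7 higher and 2 lower. Macrophage markers were at 23.9 to 25.2 CPM under the Ash1l+/- label and 26.9 to 28.0 CPM in WT, and endothelial markers at 74.1 to 90.0 CPM under the Ash1l+/- label and 80.5 to 243 CPM in WT, with no gene of either list called. Erythrocyte markers were at 31.5 to 93.6 CPM under the Ash1l+/- label and 78.5 to 628 CPM in WT, and 2 of 5 were lower without WT replicate 2, namely Hba-a1 and Hbb-bt (log2 fold changes -0.98 and -1.09). Neutrophil and mast cell markers were at 13.5 to 30.8 CPM under the Ash1l+/- label and 17.3 to 63.1 CPM in WT, and 1 of 8 tested, S100a8, was lower (-1.20). Central nervous system markers summed to 206 to 251 CPM under the Ash1l+/- label and 160 to 278 CPM in WT, of which Slc17a7, a gene that sensory neurons also express, gave 150 to 252 CPM. Of 7 tested, 1 was higher and 2 were lower without WT replicate 2. Mobp, a gene of myelinating oligodendrocytes, was at 3.85, 5.63 and 5.06 CPM under the Ash1l+/- label, against 10.4, 5.75 and 13.0 CPM in WT, and fell (log2 fold change -1.28, edgeR adjusted p = 1.29e-04). Aqp4, a water channel gene of astrocytes, was at 11.6, 15.3 and 12.1 CPM under the Ash1l+/- label, against 6.96, 2.17 and 8.81 CPM in WT, and rose (log2 fold change 0.72, edgeR adjusted p = 0.00440). The other fall was Slc17a7. Opalin, Olig2 and Slc32a1 stayed at or under 0.161 CPM in every library, and Slc6a11 reached 5.54 CPM. The part of these shifts in the receptor results was not tested.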

How the data were processed

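RNA of mouse dorsal root ganglia was sequenced in 6 unstranded libraries, 3 labelled Ash1l+/- and 3 labelled WT, grouped by title. The authors deposited raw read counts per gene and FPKM; the submitters' processing notes name the aligner HISAT2 2.0.5, the counter featureCounts 1.5.0-p3 and the build GRCm38 (mm10), without parameters. The deposited FPKM equal counts over length and 1 effective library size per library, which was 0.75 of the count total in WT replicate 2 and 1.02 to 1.04 times the total elsewhere, so they served as an alternative scale. FPKM in the text were recomputed with TMM sizes.

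Counts were filtered with filterByExpr and tested with edgeR 4.0.16 (R 4.3.3, quasi-likelihood, genotype as the only term, Benjamini-Hochberg at 0.05 over all genes), with 6 libraries and without WT replicate 2. SE is the log2 fold change over the square root of F. Members, lists and the use of both comparisons were chosen with earlier results of these data known. GC shares came from the longest GENCODE M21 transcript; trends were removed as loess offsets (span 0.3). The fit was checked on simulated counts, which held no outlying library and no GC or length trend. DESeq2 1.42.0 and limma 3.58.1 were alternatives. No library repeated another (chi-square of counts over its degrees of freedom at least 3.71 for any pair). Without strand, 21 members share exonic bases with another gene. Members given per library were those called, and in each class the most abundant member and the one with the smallest p in 6 libraries; a few genes are counted in the totals but not reported here by name.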

Additional observations from a re-analysis of the deposited data

How the results depend on the processing

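With 6 libraries, leaving out 1 library at a time gave 0 to 3252 called genes, 0 to 8 called members and member medians of log2 fold change from 0.14 to 0.42; the calls and the lowest median came without WT replicate 2. DESeq2 called 35 genes and 0 members, and every other alternative with 6 libraries called 0 genes. The 6-library median of 0.34 moved to 0.14 on log2(FPKM + 1), to -0.091 with GC and length trends removed and to -0.086 with the replicate block added to that. With 5 libraries, leaving out a further library gave 796 to 4198 genes, 1 to 10 members and medians from 0.11 to 0.19, with the fewest calls without WT replicate 1; without Ash1l+/- replicates 2 and 3, 1855 and 2120 genes were called. Calls fell to 1528 genes and 3 members on log2(FPKM + 1), 1587 and 3 on log2(FPKM + 0.1), and 1182 and 4 with trends removed. With the replicate block and trends removed, 1262 of 16395 genes and 6 of 38 members (5 higher and 1 lower) were called. The 5-library median of 0.14 moved to 0.11 with no count filter, 0.19 with a CPM filter, 0.080 on log2(FPKM + 1), -0.014 with trends removed and 0.0034 with the block added. Members whose Ash1l+/- libraries all lay above both remaining WT libraries numbered 17 of 38, and 9 with trends removed (17.8% of all genes), while those all below numbered 5, and 7 with trends removed (20.9% of all genes), an alternative added after seeing the data.

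Signs turned mainly with trends removed, and the cause was not tested. With trends removed, 15 of 37 tested members turned sign with 6 libraries, and 13 of 38 with 5. Among the members given per library in the report, signs turned with 6 libraries, first without and then with the replicate block, in Grm4 (0.053 and 0.052), Gria3 (-0.19 and -0.19), Grik1 (-0.21 and -0.21), Grm7 (-0.091 and -0.081) and Gabrb1 (-0.28 and -0.24). With 5 libraries they turned, in the same order, in the per-library members Grm4 (0.041 and 0.094), Gria3 (-0.13 and -0.11) and Grik1 (-0.081 and -0.091), and in Gabra2 (-0.020) with trends removed alone. Leaving out 1 library at a time, Grid1 ran from -0.078 (without WT replicate 2) to 0.58 with 6 libraries and up to 0.057 (without WT replicate 1) with 5; with 5, Grik1 ran from -0.049 (without Ash1l+/- replicate 3) to 0.086. None of these named members passed with a turned sign. With 5 libraries, the replicate block and trends removed, 14 of 38 tested members turned sign, and 1 of these 14 passed.

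Same-numbered libraries of the 2 groups did not deviate together (r = 0.00, -0.03 and 0.04), and 1 of the 3 Ash1l+/- libraries correlated best with its own number. Over all pairings r ran only from -0.07 to 0.04. Values this small cannot tell matched from unmatched numbers, so whether the numbers pair the libraries was not settled. With the replicate block, 12 members (8 higher, 4 lower) and 3982 genes were called in 5 libraries, including all 8 of the report, and 0 with 6. Over the alternatives with 5 libraries that kept both remaining WT libraries, adjusted p ran from 1.57e-04 to 0.0429 for Gria4. For Grin3a it ran from 4.37e-04 to 0.0522. The highest adjusted p was 0.0349 for Gabrb2 and 0.0847 for Grik3. It was far higher for the others, at 0.368 for Grin1, 0.542 for Grik5, 0.826 for Grm4 and 0.966 for Gabra2.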
